A study of Rattus norvegicus with 8 samples.

Results

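The genes of the MHC class II pathway were examined in carotid arteries of rats after intimal injury. The 8 genes were chosen by symbol in the deposited count table, which lists 37209 genes, and all 8 were found. They are the chains of the classical class II molecules of the rat (RT1-Ba, RT1-Bb, RT1-Da and RT1-Db1), the chains of the peptide exchange molecule DM (RT1-DMa and RT1-DMb), the invariant chain (Cd74) and the class II transactivator (Ciita). RNA was sequenced from 4 left carotid arteries that had been injured with a balloon catheter and from 4 undamaged right carotid arteries, which the labels call self-controls. All came from male Sprague-Dawley (SD) rats, an outbred strain, with an average body weight of 400 g and no stated age, and the injured arteries were taken 2 weeks after the injury. Each library is whole arterial tissue, the rats were under isoflurane for the surgery, and no other drug, transgene or deletion is named for them.

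Class II molecules are pairs of an α and a β chain that carry peptides to the cell surface, where CD4+ T cells read them. The new pair is held by the invariant chain, travels to endosomes where cathepsins trim that chain, and exchanges the remaining fragment for a peptide with the help of DM. Macrophages, dendritic cells and B cells are the main cells that make these molecules. Other cells, vascular cells among them, can be induced to do so by interferon-γ. Ciita is the switch. It binds no DNA itself but is recruited by the DNA-binding factors RFX, CREB and NF-Y, which sit on neighbouring promoter elements called the X box and the Y box.

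These boxes are shown first, because they are the sequence feature by which class II genes are known to be coregulated. RefSeq promoter windows of the GRCr8 build, from 250 bases before to 50 bases after each annotated start, were matched by symbol for 6 of the 8 genes, with no entry for Ciita and RT1-DMb. The windows were searched on both strands for an X box, written as AG, any 2 bases, AC, any base and GATG, and a Y box, written as GATTGG. RT1-Da, RT1-Db1 and RT1-Bb had both, in this order on the coding strand, with 33, 32 and 32 bases from the first base of the X box to the first base of the Y box. In the stretches below, which run 5′ to 3′ on the strand of the gene, capitals mark the match to the X box and then to the Y box.
RT1-Da (chr20:4515320-4515378, + strand): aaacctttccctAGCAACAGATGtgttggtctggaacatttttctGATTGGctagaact
RT1-Db1 (chr20:4560230-4560288, - strand): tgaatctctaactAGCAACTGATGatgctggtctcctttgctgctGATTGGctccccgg
RT1-Bb (chr20:4604167-4604225, - strand): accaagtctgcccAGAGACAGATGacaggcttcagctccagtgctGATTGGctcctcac
RT1-DMa (chr20:4712387-4712445, - strand): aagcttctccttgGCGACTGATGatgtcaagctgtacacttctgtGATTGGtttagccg
RT1-Ba (chr20:4576968-4577026, + strand): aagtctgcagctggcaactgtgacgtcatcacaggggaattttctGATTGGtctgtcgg

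The window of RT1-Ba matched the Y box and not the X box as written, and that of RT1-DMa matched the X box only when its first letter, the A, was dropped, a form chosen after the first search. The window of Cd74 had no match to either box. Among 27457 promoter windows, 1 per gene, the Y box was found in 15.3% and the X box in 0.94%. An X box followed by a Y box within 40 bases was found in 6 windows, or 0.0219%. These were the windows of RT1-Da, RT1-Db1, RT1-Bb, the class II genes RT1-Db2 and RT1-DOb, and Slc4a5, a bicarbonate transporter gene outside this family. Without the first letter of the X box there were 10 windows, which added RT1-DMa, Asb15, Hsd17b7 and Ttc29. Of the 6 windows of the 8 genes, 0 held the interferon elements searched for, GAS (TTCNNNGAA, in 8.68% of all windows) and ISRE (GAAA, any 2 bases and GAAA, in 3.77%). A match is a description of the letters in the window and does not show binding.

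**Figure D1:**
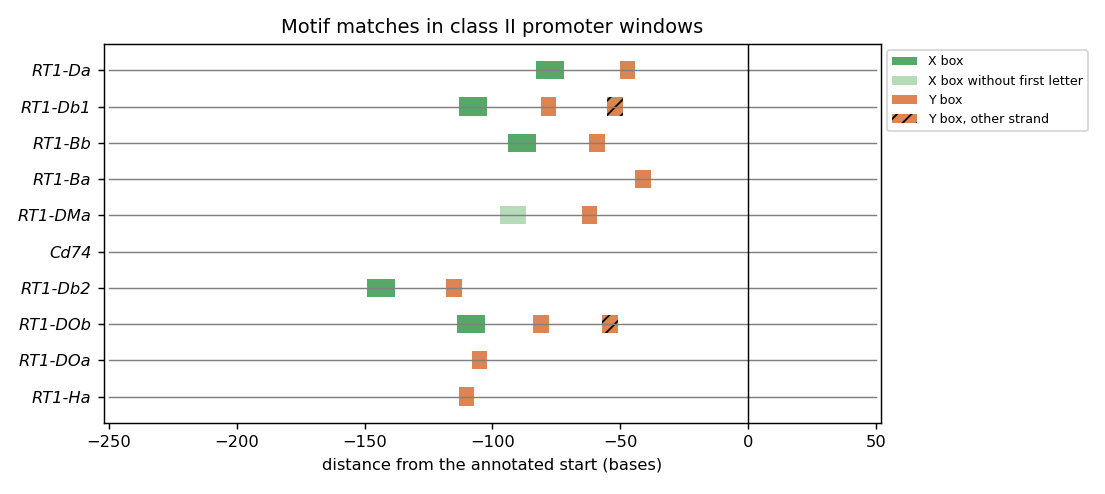
Matches to the X box and Y box in the promoter windows of 10 class II genes, drawn by distance in bases from the annotated start at 0, with each line covering the window. RT1-Da, RT1-Db1, RT1-Bb, RT1-Db2 and RT1-DOb have an X box followed by a Y box, RT1-DMa has the X box without its first letter, and Cd74 has neither box.

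Control libraries held 13470754 to 15276952 counts in total, and injured libraries 11459632 to 16658089. Levels are given as CPM, the usual depth-scaled counts, here with the TMM factors of edgeR, and a library's floor of 3 counts was 0.167 to 0.246 CPM, and this floor, like the intervals for counts below, covers counting error only. The smooth muscle markers Myh11 and Acta2 were at 2721.5 and 4084 CPM or more in every artery, although the protocol text of the labels names prefrontal cortex. Control artery 4 stood apart from the other controls. Its log2 CPM correlated with theirs at 0.83 to 0.852 across genes, against 0.976 to 0.978 among the others, and the summed CPM of 8 neuron markers was 9739 there, 3.52 to 6.72 in the other controls, 1975 in injured artery 3, 142 in injured artery 1 and 3.69 and 8.09 in injured arteries 2 and 4. Of 5 neuron markers tested, edgeR and DESeq2 called 0, and 0 had an unadjusted p under 0.05, whereas without control artery 4 edgeR called 1, Syt1, at 7.85 on the log2 scale. Values that moved most without control artery 4 are given with and without it.

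Of the 8 class II genes, 6 had enough counts for the edgeR quasi-likelihood test, which was fitted over 14359 genes, and 5 of the 6 were upregulated in the injured arteries. A gene was called upregulated at a false discovery rate under 0.05 (Benjamini-Hochberg adjusted p over all genes tested) and a fold change above 2, and 8.31% of all genes tested were. The median log2 fold change of the 6 genes was 3.50, beside -0.06 over all genes tested. The 5 called genes, Cd74, Ciita, RT1-Da, RT1-Db1 and RT1-Bb, rose by 10.8-fold to 13.8-fold. By log2 fold change they ranked between 190 and 267 among the 14359 genes. In all 5, every injured artery lay above every control artery, as in 14.3% of all genes tested. In whole tissue, more cells of a type and more mRNA per cell cannot be told apart.

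Cd74 encodes the invariant chain, the chaperone of class II molecules. It was at 16.4, 36.3, 56.4 and 109 CPM in control arteries 1 to 4 and at 719.95, 844, 719 and 697 CPM in injured arteries 1 to 4. The lowest injured artery had 6.38 times the level of the highest control. The means were 54.6 ± 39.9 CPM (SD, n = 4) and 745 ± 66.8 CPM (SD, n = 4). The log2 fold change was 3.76 ± 0.55 (SE), with an edgeR adjusted p of 0.00309. Without control artery 4, the highest of the controls, it was 4.35 (edgeR adjusted p = 0.000363). The controls spanned a 6.65-fold range and the injured arteries a 1.21-fold range.

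Ciita, which encodes the transactivator, was at 0.288, 1.15, 1.87 and 2.87 CPM in control arteries 1 to 4, from 4 to 42 counts. In injured arteries 1 to 4 it was at 16.8, 18.2, 17.1 and 15.3 CPM, from 187 to 306 counts. The injured arteries were close to each other, with a 1.19-fold range, and the controls were spread over a 9.97-fold range. Ciita had a log2 fold change of 3.43 ± 0.57 (SE), with an edgeR adjusted p of 0.00544. It was 3.92 without control artery 4 (edgeR adjusted p = 0.00112). The 95% interval with all arteries, 2.13 to 4.73, contains the log2 fold changes of all 5 other tested genes.

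RT1-Da and RT1-Db1 encode the α and the β chain of the RT1.D molecule, the rat counterpart of HLA-DR. RT1-Da was at 3.24, 4.92, 10.7 and 20.9 CPM in control arteries 1 to 4. It was at 104, 133, 112 and 112 CPM in injured arteries 1 to 4, and the groups were 4.99-fold apart between the highest control and the lowest injured artery. RT1-Db1 was at 0.720, 2.79, 4.08 and 7.9974 CPM in the controls and at 52.7, 66.1, 49.9 and 48.2 CPM in the injured arteries. For both chains control artery 1 was lowest, control artery 4 highest and injured artery 2 highest among the injured. The log2 fold change was 3.53 ± 0.56 (SE) for RT1-Da and 3.78 ± 0.61 (SE) for RT1-Db1, with edgeR adjusted p of 0.0047 and 0.00506. The values without control artery 4 were 4.19 and 4.41.

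RT1-Ba and RT1-Bb encode the α and the β chain of the RT1.B molecule, the counterpart of HLA-DQ, and they had another order of arteries. RT1-Bb was at 0.792, 2.13, 6.02 and 3.49 CPM in control arteries 1 to 4 and at 25.3, 32.2, 56.9 and 24.9 CPM in injured arteries 1 to 4. The artery with replicate number 3 was highest in both groups, and the groups were 4.14-fold apart at their nearest values. RT1-Bb was called upregulated, at 3.48 ± 0.60 (SE) on the log2 scale, with an edgeR adjusted p of 0.00637.

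RT1-Ba was not called in the fit of all arteries. It was at 0.0720, 0.492, 4.57 and 0.342 CPM in control arteries 1 to 4, from 1 to 66 counts. In injured arteries 1 to 4 it was at 3.10, 9.99, 17.6 and 2.53 CPM. Control artery 3 lay above injured arteries 1 and 4, so the groups overlapped, and the controls spanned a 63.5-fold range. Its log2 fold change was 2.59 ± 1.14 (SE), its 95% interval was -0.03 to 5.22 and its edgeR adjusted p was 0.165. An exact two-sided permutation test of its log2 CPM over the 70 relabellings gave p = 0.0857. The other 5 tested genes had p = 0.0286 in the exact permutation test, the smallest that 4 arteries against 4 allow. Without control artery 3, RT1-Ba was called, at 4.75 (edgeR adjusted p = 0.0267), and DESeq2 called it with all arteries, at 2.57 (DESeq2 adjusted p = 0.0459).

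**Figure D2:**
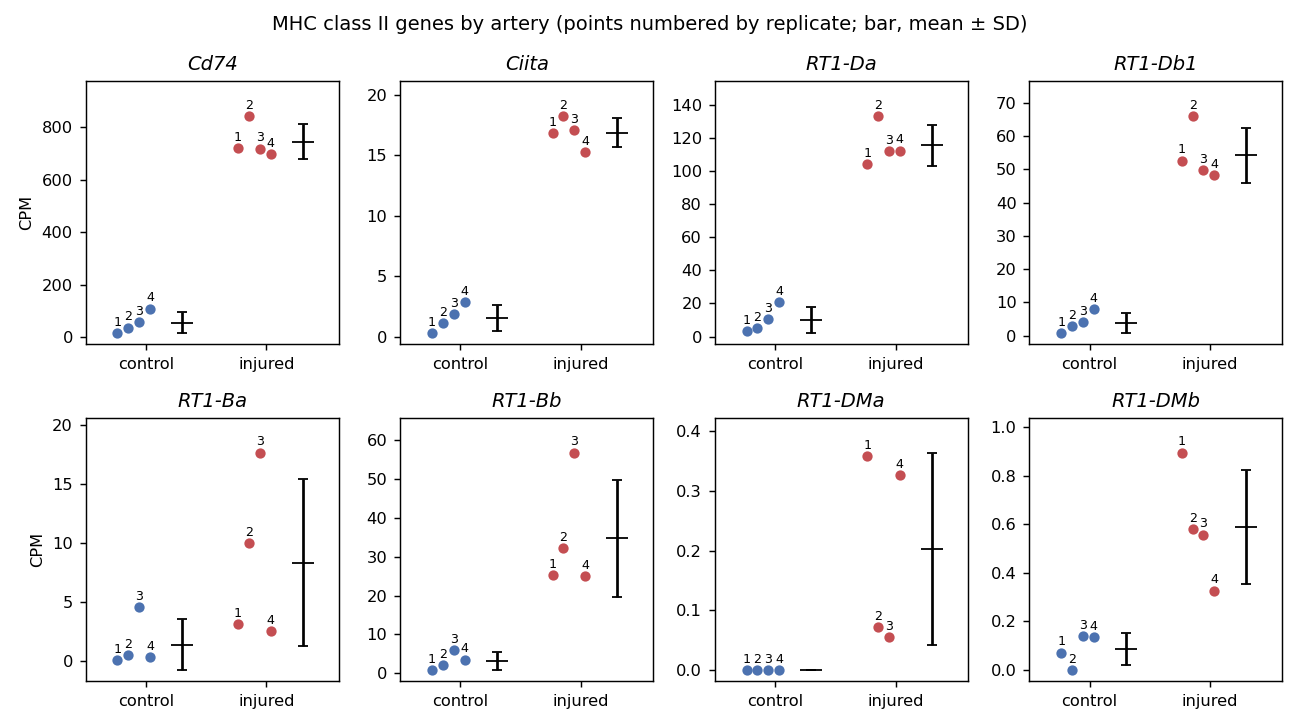
CPM of the 8 class II genes in each artery, control in blue and injured in red, on linear axes, with points numbered by replicate and black bars for the mean ± SD of 4 arteries. The injured arteries lie above all controls for every gene except RT1-Ba, as in 14.3% of all genes tested. For RT1-Ba, control artery 3 at 4.57 CPM lies above injured arteries 1 and 4. The DM chains are below 1 CPM everywhere and were not tested. For RT1-DMa the separation rests on 1 count each in injured arteries 2 and 3, under the floor of 3 counts.

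The counts of both chains of a molecule come from the same library, so the share of one chain is free of depth and scaling. RT1-Ba took 8.33% (1 of 12 counts), 18.8%, 43.1% and 8.93% of the counts of RT1-Ba and RT1-Bb in control arteries 1 to 4. It took 10.9%, 23.7%, 23.7% and 9.23% in injured arteries 1 to 4. The arteries numbered 1 and 4 had lower shares than those numbered 2 and 3 in both groups. In control arteries 1, 2 and 4 this rests on few counts. Their 95% exact binomial (Clopper-Pearson) intervals, 0.211 to 38.5%, 7.21 to 36.4% and 2.96 to 19.6%, overlapped. Whether equal numbers mark one animal is not known. The interval of control artery 3, 35.2 to 51.4%, lay above those of all injured arteries, of which the highest reached 27.4%. The share of RT1-Da among RT1-Da and RT1-Db1 was steadier, at 63.8 to 81.8% in the controls and 66.5 to 69.2% in injured arteries 1 to 3, with an interval of 67.9 to 72% in injured artery 4. The lowest and the highest control were arteries 2 and 1, with intervals of 53.3 to 73.5% and 69.1 to 90.9%.

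**Figure D3:**
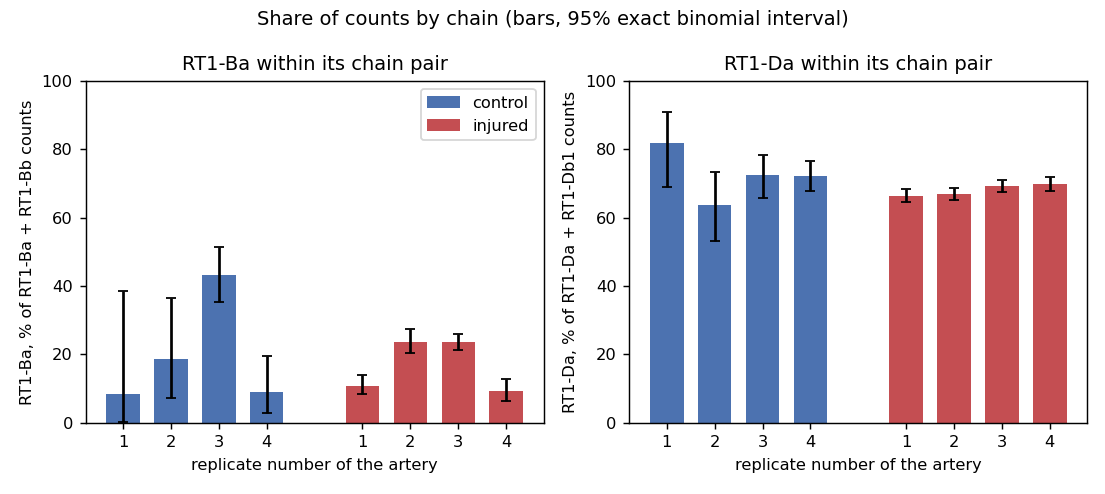
Share of RT1-Ba among the counts of RT1-Ba and RT1-Bb (left) and of RT1-Da among those of RT1-Da and RT1-Db1 (right), in percent, for each control (blue) and injured (red) artery, with 95% exact binomial intervals. The share of RT1-Ba ran from 8.33% to 43.1%, while that of RT1-Da lay between 63.8% and 81.8%.

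The DM chains had too few counts for the test in whole arteries. RT1-DMa had 0 counts in all 4 controls and 6, 1, 1 and 4 counts in injured arteries 1 to 4, a mean of 0.203 CPM that lay within the range of the floors. RT1-DMb had 1, 0, 2 and 2 counts in control arteries 1 to 4 and 15, 8, 10 and 4 in injured arteries 1 to 4, so that all injured arteries lay above all controls. Over the group totals of 5 and 37 counts, the ratio of RT1-DMb was 7.6 (95% counting interval 2.98 to 24.8). DESeq2, which tested more genes, called RT1-DMb upregulated (DESeq2 adjusted p = 0.0289), and edgeR without a filter on low counts did not (edgeR adjusted p = 0.0685). For RT1-DMa the unfiltered edgeR fit gave an adjusted p of 0.104 and DESeq2 gave none.

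The remaining class II region genes were few and low. DO is a modulator of DM that is best known from B cells and some dendritic cells, and its chains RT1-DOa and RT1-DOb had log2 fold changes of 3.37 ± 0.43 (SE) and 2.64 ± 0.68 (SE), with edgeR adjusted p of 0.00171 and 0.0332. RT1-DOa was at 0.0819 to 0.342 CPM in the controls and 1.91 to 3.52 CPM in the injured arteries and stayed called whichever artery was left out. RT1-DOb was called in 1 of the 8 fits lacking an artery, the one without control artery 4, which had 1.23 CPM against at most 0.246 in the other controls. Of the other 4 genes on this list, RT1-Db2 had 11 counts in the injured arteries and 0 in the controls, RT1-Ha 7 against 1, and RT1-Hb-ps1 and Btnl2 had at most 3 counts in any library.

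The tested factors that recruit Ciita to class II promoters were not called. Of 11 class II transcription factors listed, 10 were tested and 4 were called, all upregulated. These were Spi1, also called PU.1, the myeloid master factor, with a log2 fold change of 3.14, Irf8 and Irf4, the interferon regulatory factors of myeloid and lymphoid cells, with 2.16 and 1.77, and Ezh2, a histone methyltransferase of dividing cells that is known to restrain Ciita, with 1.68. Each stayed called whichever artery was left out. The subunits of RFX, NF-Y and CREB were not called. Rfx5 had a log2 fold change of 0.15 (95% interval -0.24 to 0.54), Rfxank 0.41 (95% interval -0.01 to 0.82), Nfya 0.35 (95% interval -0.09 to 0.79), Nfyb -0.13 (95% interval -0.46 to 0.20), Nfyc -0.03 (95% interval -0.37 to 0.32) and Creb1 -0.16 (95% interval -0.44 to 0.11). All 6 intervals end below 1, which is a fold change of 2, whereas the interval of Ciita starts at 2.13. Rfxap was below its test limit, with at most 0.342 CPM.

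Interferon-γ is the classical inducer of Ciita. Ifng itself had at most 3 counts in any artery and 0 in 6 of the 8, which is at or under the floor. Of the 7 genes tested by edgeR, 0 met both criteria, and DESeq2 called 0 as well, while 4 had an unadjusted p under 0.05, as did 31.1% of all genes tested. These 4 also passed the false discovery rate, with a fold change below 2 and higher in the injured arteries, and 10.8% of all genes tested passed that rate alone and were higher. They were the receptor chains Ifngr2 and Ifngr1, at 0.92 and 0.63 on the log2 scale (edgeR adjusted p = 0.0486 and 0.0136), the kinase Jak2, at 0.79 (edgeR adjusted p = 0.00316), and the factor Irf1, at 0.58 (edgeR adjusted p = 0.00409). Without control artery 4, 1 gene met both criteria, Ifngr2, at 1.20 (edgeR adjusted p = 0.00274). The kinase Jak1 was at 0.00 (95% interval -0.23 to 0.23).

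In endosomal antigen processing, 4 of 11 tested genes were called, all upregulated, with a list median of 0.81. Ctsz, a carboxypeptidase, had a log2 fold change of 2.61 and Ctss, the cathepsin that cleaves the invariant chain in macrophages and dendritic cells, 2.46. Ifi30, the thiol reductase GILT, had 1.20. March1, a ubiquitin ligase that sends class II molecules to lysosomes, had 2.44 and was not called without control artery 2, control artery 3 or injured artery 2. The cathepsins Ctsl, Ctsd and Ctsh, with 0.00, 0.13 and 0.00, and the related ligase March8, with -0.03, were not called. Ctsb, another cathepsin, and Lgmn, an asparaginyl endopeptidase, passed the false discovery rate with a fold change below 2, at 0.81 and 0.96 (edgeR adjusted p = 0.00553 and 0.00522), and Lgmn was called without control artery 4, at 1.06. Ctss was at 10.1 to 13.4 CPM in the controls and 56.7 to 82.1 CPM in the injured arteries.

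Among costimulators and receptors of class II molecules, 2 of 8 tested genes were called upregulated. Cd86, a costimulator on antigen-presenting cells, was at 0.208 to 0.752 CPM in the controls and 4.97 to 6.04 CPM in the injured arteries, a log2 fold change of 3.68. Cd4, the class II coreceptor, which rat macrophages carry as well as T cells, rose by 2.48. Cd80 (0.97), Cd40 (1.33) and the T cell costimulatory receptor Cd28 (1.82) were not called. DESeq2 called 4 genes of this list, with Cd40 (DESeq2 adjusted p = 0.0199) and Cd28 (DESeq2 adjusted p = 0.0306) added. Of 14 tested class I presentation genes 4 were called, with a list median of 0.78, against 5 of 6 and 3.50 for class II. RT1-A2 and RT1-CE5, class I heavy chains, had log2 fold changes of 1.48 and 1.43, Nlrc5, the class I counterpart of Ciita, 1.42 and the peptide transporter Tap1 1.04, the last not called without injured artery 2. B2m, the light chain, had 0.11 (95% interval -0.21 to 0.42). The RT1 class I genes are near-identical copies, and their counts are uncertain.

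**Figure D4:**
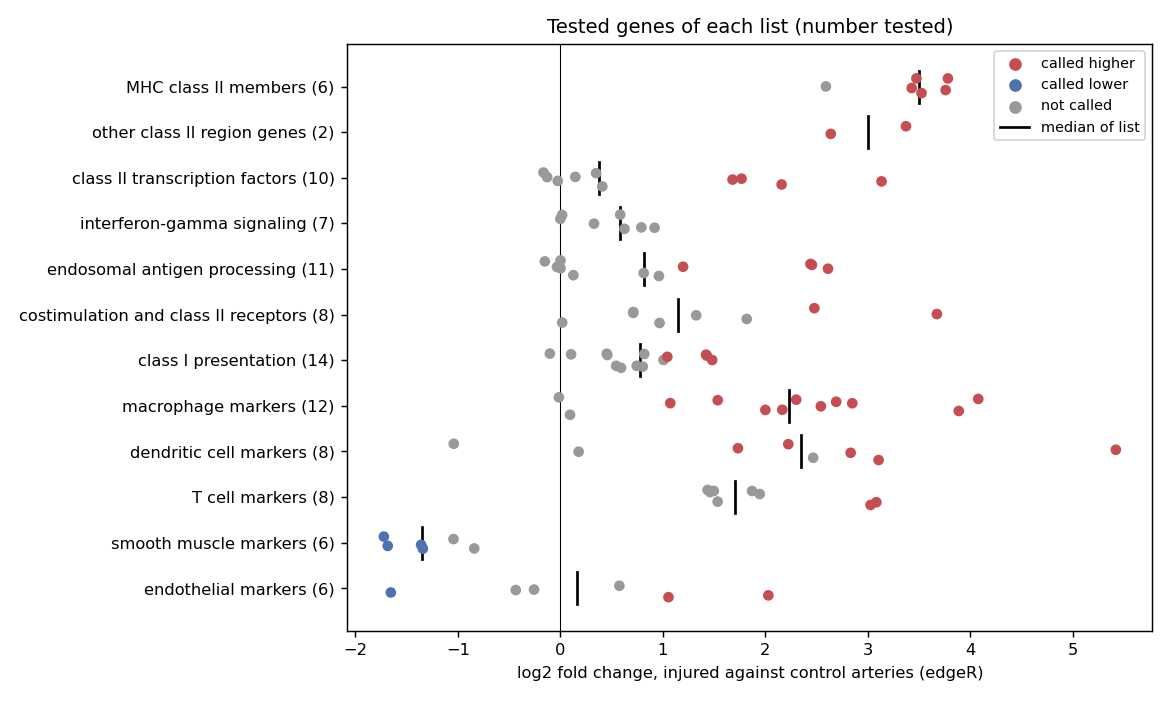
Log2 fold change of each tested gene (injured against control arteries, edgeR) by list, with the number tested in parentheses, red for called higher, blue for called lower, grey for not called, and a black line for the median of the list. The class II genes lie between 2.59 and 3.78, and the medians of the other 11 lists drawn reach from -1.35 to 3.01. Skeletal muscle (median 5.13), neuron and B cell markers are not drawn.

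Markers of cells that carry class II were examined next. Of 12 macrophage markers 10 were called upregulated, with a median log2 fold change of 2.23. Cd68 had 4.08, Itgam 3.89, Fcgr1a 2.85 and C1qa 2.69, while Cd163 and Mertk, at 0.09 and -0.01, were not called. The summed CPM of the 12 was 203 to 274 in the controls and 802 to 1077 in the injured arteries. Of 8 tested dendritic cell markers 5 were called upregulated. Itgax, which activated macrophages also express, had a log2 fold change of 5.42 and Batf3 2.83, both called whichever artery was left out. With all arteries, Zbtb46, at 0.18 (95% interval -0.15 to 0.50), and Cadm1, at -1.04 (95% interval -4.20 to 2.12), were not called. Ccr7 (3.11) was not called without control artery 3 or injured artery 1, 3 or 4, and Clec9a (2.23) was called in 1 fit lacking an artery, the one without control artery 4. Without control artery 4, 8 dendritic markers were called, with Flt3, Xcr1 and Cadm1 added. Flt3, a receptor of dendritic cells, had 2.47 and was not called by edgeR with all arteries. It was at 2.87 CPM in control artery 4 and 0 in control artery 1. DESeq2 with all arteries called 7 dendritic markers, with Flt3 (DESeq2 adjusted p = 0.0202) and Xcr1 (DESeq2 adjusted p = 0.00225) added. The summed CPM of 9 matched dendritic markers was 29.9 to 45.7 in control arteries 1 to 3, 238 in control artery 4, of which Cadm1 made up 199.9, and 135 to 161 in the injured arteries.

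B cell markers were low. Cd79a was at 0 in all 8 libraries and Ms4a1 was at most 0.358 CPM. Of 8 B cell markers 1 could be tested, Blk, which was not called (log2 fold change -0.88). It had an unadjusted p of 0.0647, so 0 had one under 0.05. DESeq2, which tested more genes, called Pax5 higher, at 4.52. Without control artery 4, edgeR called 2 markers, Fcrla at 1.75 and Blk at -1.17. The summed CPM of the 8 was 1.44 to 4.75 in the controls and 4.19 to 4.90 in the injured arteries, and Blk made up most of it in every control. Without Blk, a sum taken after seeing the data, it was 0.288 to 0.819 in the controls and 2.23 to 3.68 in the injured arteries. Of these 7 markers 5, Pax5 and Fcrla among them, were higher in every injured artery than in any control. Of 8 tested T cell markers 2 were called, Cd8b (3.09) and Cd2 (3.03). With an artery left out, Cd8b was called in 2 of 8 fits, those without control artery 3 or 4, and Cd2 was lost without control artery 3 or injured artery 1, 2 or 4. The summed CPM of the 9 listed was 1.85 to 11.8 in the controls and 13.6 to 32.1 in the injured arteries. The part of these cells in the rise of the class II genes was not tested.

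Ptprc, the leukocyte common antigen CD45, was at 5.04, 7.95, 8.86 and 6.15 CPM in control arteries 1 to 4 and at 81.7, 92.3, 49.3 and 64.2 CPM in injured arteries 1 to 4. It rose by a log2 fold change of 3.36 ± 0.26 (SE), with an edgeR adjusted p of 0.000281. The log2 ratio of Cd74 to Ptprc was 1.68 to 4.12 in the controls and 3.14 to 3.86 in the injured arteries, with overlap. Its group means differed by 0.75. Control artery 4 alone made the overlap. Without it the controls were at 1.68 to 2.65 and the difference was 1.24. The difference between the group means of the log2 ratio was 0.54 for RT1-Da, 0.82 for RT1-Db1, 0.32 for RT1-Bb, 0.33 for Ciita and -0.24 for RT1-Ba, and the groups overlapped for each of them with all arteries. Leaving out control artery 4, these differences were 1.06, 1.34, 0.53, 0.76 and -0.40, and RT1-Da and RT1-Db1 no longer overlapped, while RT1-Bb, Ciita and RT1-Ba still did.

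Set against the mean log2 CPM of the 12 macrophage markers, the class II genes were higher in the injured arteries. This mean includes markers that hardly moved, such as Cd163 (log2 fold change 0.09) and Mertk (-0.01). Cd68 (4.08) and Itgam (3.89) had larger log2 fold changes than every class II gene (2.59 to 3.78). The log2 ratio of Cd74 to the mean was 0.60, 1.31, 1.89 and 3.28 in control arteries 1 to 4. In injured arteries 1 to 4 it was 3.69, 3.75, 3.94 and 3.68, without overlap. For RT1-Db1, Ciita, RT1-Da and RT1-Bb the injured arteries were also above all controls, with differences between group means of 2.06, 1.57, 1.78 and 1.56. For RT1-Da the gap was narrow, 0.902 in control artery 4 against 0.903 in injured artery 1. For RT1-Ba, with 1.00, they overlapped. Control artery 4 was nearest to the injured arteries in Cd74, Ciita, RT1-Da and RT1-Db1 on this scale. Its Ptprc, at 6.15 CPM, and its summed macrophage markers, at 203 CPM, were within or at the low end of the other controls, and its summed neuron markers were the highest of all libraries.

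**Figure D5:**
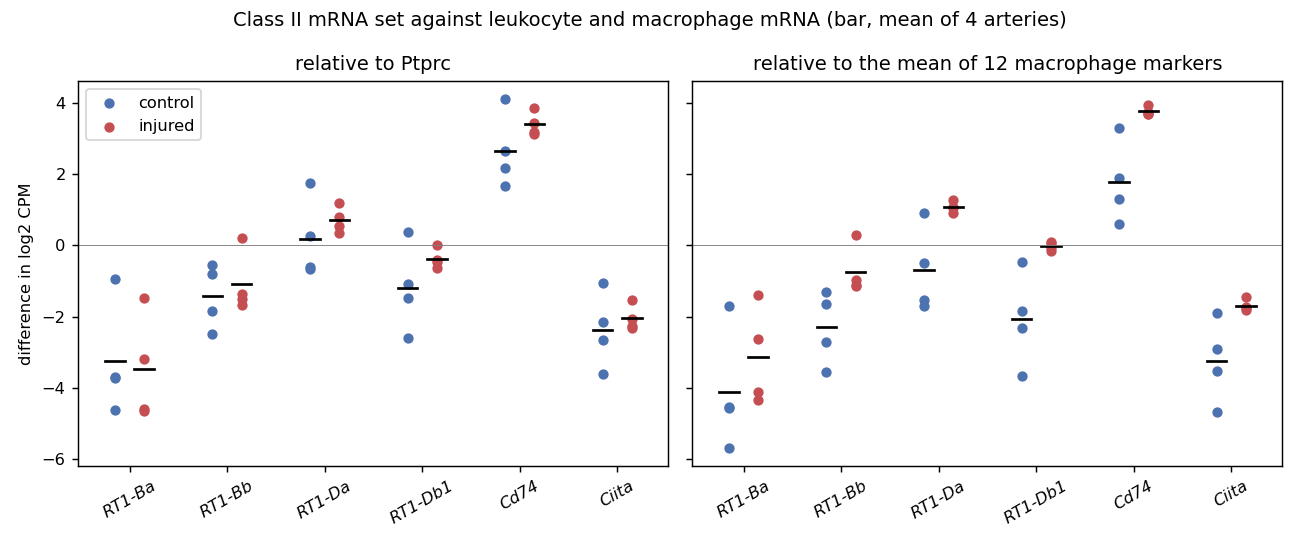
Difference in log2 CPM between each tested class II gene and Ptprc (left) or the mean of 12 macrophage markers (right), one point per artery, blue for control and red for injured, with black bars for group means. Relative to Ptprc the groups overlap for all 6 genes, for Cd74, RT1-Da and RT1-Db1 through control artery 4 alone, and relative to the macrophage markers they overlap for RT1-Ba.

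Across the 8 arteries the class II genes followed each other closely. Ciita correlated with the mean log2 CPM of the other tested class II genes at 0.988, RT1-Bb at 0.988, RT1-Db1 at 0.981, Cd74 at 0.98 and RT1-Da at 0.976, and RT1-Ba at 0.817. These values include the difference between the groups. Of deviations from the group means, Ciita and RT1-Db1 correlated at 0.992, Cd74 and RT1-Db1 at 0.989 and Cd74 and Ciita at 0.98, whereas RT1-Ba correlated with Cd74 at 0.374 and with RT1-Bb at 0.874. The points share libraries and depth, and the deviations are dominated by the wide spread of the controls.

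The genes whose log2 CPM was most like the mean of the 6 class II genes over the 8 arteries were Fcgr2b, Serpinb1a, Abi3, Micall2, Arhgap27, Rad54l, Itga4 and LOC100363332, with Pearson correlations of 0.991 to 0.983. All 8 were called upregulated. This follows largely from the choice, because the class II mean itself was higher in every injured artery than in any control. Fcgr2b, the inhibitory receptor for IgG on B cells and myeloid cells, had the highest value and a log2 fold change of 3.83, and Itga4, an integrin chain of leukocytes, one of 2.89. By deviations from the group means the nearest were Mlycd, Rab33b, Actr3b, Skp2, Fcgr2b, Mief1, Mib1 and LOC103689930, at 0.967 to 0.944. Of these, Fcgr2b was called and the log2 fold changes of the other 7 lay between -0.48 and 0.32.

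Smooth muscle markers were called lower for 4 of 6 genes, beside 2.57% of all genes tested, with a median log2 fold change of -1.35. The log2 fold changes were -1.72 for Myh11, -1.69 for Cnn1, -1.36 for Tagln and -1.34 for Acta2. With an artery left out, Acta2 and Tagln were called in 1 of 8 fits, the one without control artery 4. Myh11 was called in 2, without control artery 4 or injured artery 1, and Cnn1 in all but the one without injured artery 4. Without control artery 4 all 6 markers were called lower, with Smtn at -1.28 and Lmod1 at -1.10 added, and without injured artery 4 it was 0. The summed CPM of the 6 was 16999 in control artery 4 and 36954 to 50110 in the other controls. Among the endothelial markers Kdr (2.03) and Cdh5 (1.06) were called higher and Vwf (-1.65) lower. Cdh5 was not called without control artery 1 or 4 or injured artery 4, nor Vwf without injured artery 2 or 4. Of 6 skeletal muscle markers 4 were called higher, Myh1 with 8.98, Mylpf with 8.08, Myh4 with 7.84 and Tnnt3 with 2.42, and the summed CPM of the 6 was 81.7 to 252 in the controls and 281 to 995 in the injured arteries. The summed CPM of the 8 class II genes, 901 to 1104 in the injured arteries, was highest in injured artery 2. That of skeletal muscle markers was highest in injured artery 4, and a relation between these sums was not tested.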

How the data were processed

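The authors deposited raw read counts per gene symbol, without normalization. The submitters' processing notes name HISAT2 2.0.4, and the counting tool, strand setting, genome build and annotation are not given in the sources used here, so counts of overlapping genes and near-identical RT1 copies are uncertain. Of 37209 genes, 14359 passed filterByExpr of edgeR 4.0.16 (R 4.3.3). After TMM scaling, its quasi-likelihood test was run on the 4 injured and 4 control libraries without a covariate. The criteria, an adjusted p under 0.05 and a fold change above 2, are those of the study, which used DESeq. DESeq2 1.42.0, other scaling factors and filters, a replicate block and leaving out each artery were alternatives. Log2 CPM used a prior count of 2. Nothing in the labels says that arteries of one group came from separate animals. Standard errors were taken from the F statistic. The tests were checked on simulated data. The class II genes and the lists were chosen with earlier results of these data known. Lists were matched by symbol and, for 4 genes, by RefSeq synonym. Of each other list, the called genes with the 4 largest changes and the genes needed to read a count are named. Promoter windows came from RefSeq (GRCr8), and no other coordinates were used. Some genes of the lists are counted but not reported by name here.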

Additional observations from a re-analysis of the deposited data

Results flagged for a closer look

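For each of the 8 class II genes in both groups, and for the chain shares of RT1-Ba and RT1-Da, the distance of the most extreme artery to its nearest neighbour was divided by the range of the 4 arteries. Of 20 such groups 2 exceeded Dixon's 95% critical value, where chance gives about 1. The controls of RT1-DMa were all at 0, so that group had no range and could not be judged. The chain shares reuse the counts of the genes, so the groups are not independent. RT1-Ba in control artery 3, at 4.57 CPM against 0.492 CPM in the nearest control, gave 0.907. Cd74 in injured artery 2, at 844 CPM against 719.9 CPM in the nearest injured artery, gave 0.842.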

How the results depend on the processing

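Cd74, Ciita, RT1-Da, RT1-Db1 and RT1-Bb were called in every alternative that tested them. With one artery left out in turn their log2 fold changes ranged from 3.45 to 4.35 for Cd74, 3.08 to 3.92 for Ciita, 3.23 to 4.19 for RT1-Da, 3.43 to 4.41 for RT1-Db1 and 3.13 to 4.01 for RT1-Bb, and that of RT1-Ba from 1.91 to 4.75. Injury minus control means ranged from 0.152 to 0.253 CPM for RT1-DMa and from 0.401 to 0.591 CPM for RT1-DMb. The number of class II genes called was 5 or 6 with one artery left out, 7 with DESeq2 and, of 4 tested, 4 with at least 10 counts per library. RT1-Ba was also called by DESeq2, with 2.57, and with the replicate block, with 3.33 (adjusted p = 0.034 in edgeR's test). The label of the right carotid as self-control does not say that equal numbers mark one animal, and the deviations of same-numbered arteries correlated at 0.301, 0.45, -0.52 and -0.416. Whether the numbers pair animals is thus not known, and they were not used as pairs. The block left 1187 genes called in place of 1562, and 32 in place of 44 on the other lists. All genes called numbered 1007 when each library had to hold 10 counts or more and 2468 by the false discovery rate alone, and 1142 to 2398 with one artery left out, the highest without control artery 4. Without control artery 4 and injured artery 3, an alternative chosen after seeing the data, 2473 genes and 5 class II genes were called, while RT1-Ba was at 1.58. The other lists together gave 33 to 53 calls with one artery left out. Library totals alone moved the median of all genes by 0.176 (log2). The causes were not tested. At this depth RT1-DMa, RT1-DMb and Ifng are near the floor of 3 counts.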
